A study of Mus musculus with 4 samples.

Results

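Oligodendrocyte precursor genes are 9 early factors and markers of the oligodendrocyte lineage (Olig1, Olig2, Nkx2-2, Sox10, Pdgfra, Gpr17, Cspg4, Lhfpl3 and C1ql1), chosen by name, and all 9 had a row among the 22770 genes of the deposited table. RNA of cerebral cortex dissected from mouse embryos at embryonic day 16.5 was compared between 2 wild-type littermates' libraries and 2 libraries of mutants homozygous for the Sey (small eye) allele of Pax6, all on a mixed background of C57BL/6J, 129S6 and CD1. The mutation is germline, so it is present in every cell of the embryo, and the dissected tissue holds neurons, progenitors, vessels and any attached meninges as well as glia. No label says whether each library was a separate embryo or whether equal replicate numbers share a litter, so the p-values measure only the spread between these libraries. Between the wild types that spread may be technical. The mutants differed in sex-linked RNA, as given below, so they were not repeats of the same embryo. The study belongs to work on the factors Dlx1 and Dlx2 in the making of olfactory bulb interneurons, and the question here is how genes of this lineage stand in Pax6 mutant cortex.

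Oligodendrocytes make myelin, and they arise from migratory precursors. In the embryonic forebrain the first precursors come from ventral progenitors that need the basic helix-loop-helix factors Olig1 and Olig2 downstream of Sonic hedgehog, and they spread into the cortex before cortical progenitors add their own. Precursors respond to platelet-derived growth factor through the receptor Pdgfra, carry the proteoglycan NG2 (Cspg4), and use Sox10 and Nkx2-2 to drive later differentiation. Several of these genes are also used elsewhere: Olig1 and Olig2 in dividing ventral progenitors, Pdgfra in meningeal fibroblasts, Cspg4 in pericytes and Sox10 in neural crest derivatives. In tissue RNA, fewer cells of a type and less RNA per cell cannot be told apart.

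Values are FPKM, fragments mapped to a gene, scaled to its exon length and to the mapped fragments of the library. A gene was tested when it reached 0.5 FPKM in 2 or more libraries, which 15399 genes did. Column totals lay between 579698 and 593256 FPKM, and 13682 to 13875 genes reached 1 FPKM in a library. FPKM keeps no fragment totals; from the lowest values 1 fragment was estimated at 0.0866 to 0.132 FPKM in a gene with a kilobase of exon, and the depth relative to wild type 1 at 0.807 in wild type 2, 0.865 in mutant 1 and 1.23 in mutant 2. Mutant 1 stood apart in fibroblast and meningeal genes (11 genes, summed level 34.0 FPKM against 5.47 to 9.003 in the other 3 libraries) and in Xist, the RNA of the inactive X (350.1 FPKM against 0.0788 to 0.224). The Y-linked gene Ddx3y was listed at 0 in mutant 1, and was 23.3 FPKM in mutant 2 and 17.6 and 16.5 FPKM in the wild types. Mutant 1 thus had a female pattern, and mutant 2 and both wild types a male one. Cortical and neuronal markers were well above the filter in all 4 libraries, and 5 of 8 of them fell in mutants. One was the cortical neuron factor Neurod6, at 534 and 588 FPKM in wild-type and 352 and 323 FPKM in mutant libraries (log2 fold change -0.73, limma adjusted p = 0.0219, or 0.0789 to 0.179 with 1 library left out, 0.0677 without the filter and 0.0928 without the mean-variance trend). The part of neuronal content in the members' values was not tested.

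No oligodendrocyte precursor gene passed the test. Of the 7 members that could be tested 0 rose and 0 fell in limma at an adjusted p under 0.05, which 3.48% of all tested genes passed (2.02% higher and 1.46% lower in the mutants), and 1 member had an unadjusted p under 0.05, against 19.5% of all tested genes. The median log2 fold change of the 7 was -0.08 (mutant minus wild type, on the log2(FPKM + 0.5) scale), and over all tested genes it was 0.00062. Groups did not overlap for 2 of the 7, Olig2 and Gpr17, against 51.6% of all tested genes. The exact two-sided permutation test of 2 against 2 libraries cannot go below p = 0.333, the value both of these members had. The other 2 members, Nkx2-2 and C1ql1, reached 0.5 FPKM in 1 library only, so they were not tested.

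The factors Olig1 and Olig2 led, with 6.35 to 15.2 and 4.37 to 11.3 FPKM over the 4 libraries, followed by Pdgfra (2.50 to 4.43), Lhfpl3 (1.93 to 2.37), Cspg4 (0.903 to 1.35), Gpr17 (0.377 to 1.18), Sox10 (0.436 to 0.849), C1ql1 (0.0845 to 1.04) and Nkx2-2 (0 to 1.43). FPKM is per length, so these levels can be set side by side between genes. In that order only Pdgfra against Lhfpl3 and Lhfpl3 against Cspg4 had ranges that did not overlap, and every other pair of neighbours overlapped. Sox10, which is expressed throughout the committed lineage, stayed under 1 FPKM in all 4 libraries, and which cells held the RNA of any member cannot be read from tissue values.

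**Figure D1:**
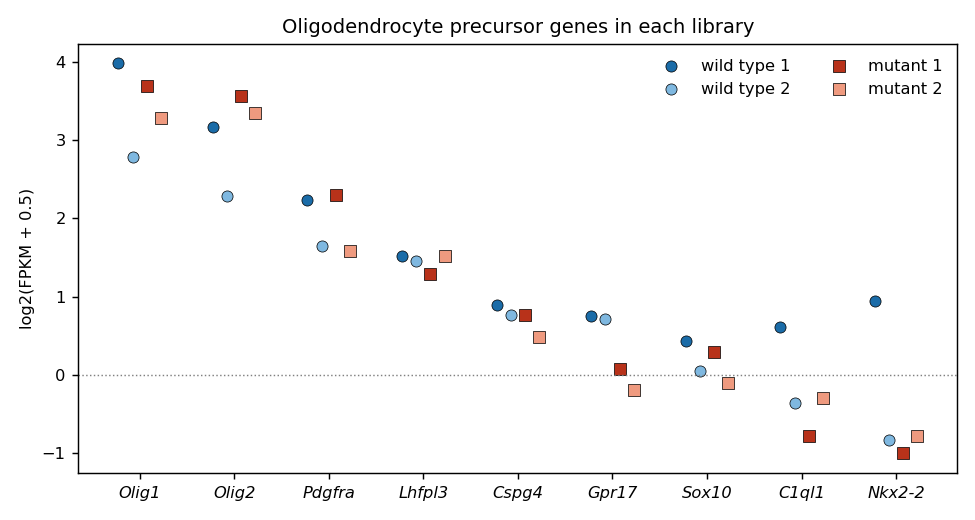
Level of each of the 9 genes, as log2(FPKM + 0.5), in the 4 libraries, with wild types as blue circles and mutants as red squares, ordered by mean FPKM. Wild type 1 lies above wild type 2 for all 9 genes, from Olig1 (15.2 against 6.35 FPKM) to Nkx2-2 (1.43 against 0.0637 FPKM), and both mutants lie between the wild types for Olig1.

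Sequence upstream of Olig2 and Pdgfra is shown because these are the lineage-defining factor with the highest estimated change and the growth factor receptor of the precursor. The letters are those of RefSeq on GRCm38.p6, whose promoter table matched 5 of the 9 members, and E-boxes (CANNTG, the letters read by basic helix-loop-helix factors, searched on both strands, of which it is its own reverse) are in capitals. The Olig2 stretch lies at chr16:91225300-91225456, plus strand, and stops before the first annotated base of the gene. The Pdgfra stretch lies at chr5:75152001-75152250, plus strand, and ends at the RefSeq start site.
Olig2: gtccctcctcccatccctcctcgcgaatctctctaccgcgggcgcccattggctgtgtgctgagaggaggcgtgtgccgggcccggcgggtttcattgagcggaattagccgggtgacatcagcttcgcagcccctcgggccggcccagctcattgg
Pdgfra: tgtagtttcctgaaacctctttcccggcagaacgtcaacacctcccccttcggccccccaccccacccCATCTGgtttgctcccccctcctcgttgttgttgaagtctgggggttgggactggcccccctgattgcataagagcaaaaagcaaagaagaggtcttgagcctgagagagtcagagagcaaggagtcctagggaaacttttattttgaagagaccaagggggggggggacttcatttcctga
Over the full 250 bases before the start, Pdgfra held 1 E-box and Olig2 held 0, while 66.2% of the 32851 promoters of the table held at least 1. Among the other matched members Nkx2-2 held 3, Lhfpl3 2 and Cspg4 0. The RefSeq start used for Nkx2-2, at 147186402, lies inside the annotated span of the gene, and so does its window. None of these 5 windows held TTCACGC, the core of the Pax6 paired-domain motif (found in 1.03% of all promoters), TAATTA, read by many homeodomains (4.84%), ACAAAG, read by Sox factors (16.5%), or GACCACCC, read by Gli factors (0.703%). A missing match says only that these letters are not in these windows.

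Among the transcription factors, Olig2 had the highest estimate. Olig2 (ENSMUSG00000039830), required for the specification of the lineage, lies on chromosome 16 from 91225457 to 91228677 on the plus strand in GRCm38. Its level measured 8.48 and 4.37 FPKM in wild-type and 11.3 and 9.63 FPKM in mutant libraries. Both mutants lay above both wild types, and the nearest pair differed less (9.63 against 8.48 FPKM) than the wild types did from each other. The log2 fold change was 0.73 (SE 0.31, 95% interval -0.06 to 1.51, limma adjusted p = 0.288). It was 1.17 without wild type 1 and 0.28 without wild type 2 (adjusted p = 0.170 and 0.547), and 0.61 and 0.84 without mutant 1 and 2. The interval runs from 0.958 to 2.85 as a fold of FPKM + 0.5, so neither no difference nor a change of 2-fold lay outside it. In the authors' deposited table the ratio of mutant to wild type was 1.63 with a p-value of 0.356.

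Olig1 (ENSMUSG00000046160), the neighbour and close relative of Olig2 that supports maturation of the lineage, starts 41094 bases beyond the end of Olig2, at 91269772 to 91271933 on the same strand. It measured 15.2 and 6.35 FPKM in wild-type and 12.3 and 9.19 FPKM in mutant libraries. The mutants lay inside the range of the wild types, with means of 10.8 ± 6.28 (SD, n = 2) and 10.8 ± 2.23 FPKM. The log2 fold change was 0.10 (SE 0.41, 95% interval -0.95 to 1.16, limma adjusted p = 0.920), and it was -0.50 without wild type 2 and -0.10 without mutant 1. Olig1 overlaps the annotated gene Gm15966 on the other strand and strand use is not stated, so its value is uncertain.

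Nkx2-2 (ENSMUSG00000027434), a homeodomain factor of ventral progenitors and of differentiating precursors, lies on chromosome 2 from 147177546 to 147194243 on the minus strand. It was 1.43 FPKM in wild type 1, 0.0637 in wild type 2, listed at 0 in mutant 1 and 0.0854 in mutant 2. Wild type 1 thus held nearly all of the signal, an estimated 38.5 fragments against 0 to 2.84 in the other 3 libraries. The authors' deposited table gives a ratio of 0.0573 for this gene with a p-value of 1, a ratio set by that 1 library. Nkx2-2 overlaps the annotated antisense RNA Nkx2-2os, so its value is uncertain. The medial ganglionic eminence factor Nkx2-1, itself under the filter, was at 0.165 FPKM in the same library and 0.184 to 0.485 FPKM in the others. Of the 7 tested ventral progenitor factors described below, 5 were higher in wild type 1 than in wild type 2. Their median difference was 0.37 on the log2(FPKM + 0.5) scale. The source of the Nkx2-2 signal was not tested.

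Sox10 (ENSMUSG00000033006), the Sox factor that drives myelin gene expression later on, lies on chromosome 15 from 79154908 to 79165240 on the minus strand. It measured 0.849 and 0.536 FPKM in wild-type and 0.731 and 0.436 FPKM in mutant libraries, so the groups overlapped. The log2 fold change was -0.14 (SE 0.30, 95% interval -0.91 to 0.63, limma adjusted p = 0.843), with the opposite sign, at 0.05 and 0.06, without wild type 1 or mutant 2. An estimated 12.4 to 24.3 fragments stood behind each value. Neural crest and Schwann cell genes, which would mark Sox10 RNA from nerve, had 7 of 8 listed names in the table and 0 of 2 tested genes called. They summed to 6.91 and 6.37 FPKM in wild-type and 6.31 and 4.56 FPKM in mutant libraries, mostly from Ngfr, a receptor also used outside the crest. Erbb3, Tfap2a, Tfap2b and Mitf stayed at or under 0.313 FPKM in each library, with Tfap2a listed at 0 in mutant 2.

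Neither receptor gene passed the test, and their fold changes were not tested against each other. Pdgfra (ENSMUSG00000029231), the receptor through which platelet-derived growth factor keeps precursors dividing, lies on chromosome 5 from 75152292 to 75198215 on the plus strand. It measured 4.21 and 2.63 FPKM in wild-type and 4.43 and 2.50 FPKM in mutant libraries. Each genotype had 1 high and 1 low library, at nearly the same levels, and the mutants spanned the wild types. The log2 fold change was 0.0036 (SE 0.33, 95% interval -0.84 to 0.85, limma adjusted p = 0.996), which as a fold of FPKM + 0.5 runs from 0.557 to 1.80. Fibroblast and meningeal genes, which mark other cells that carry Pdgfra, were highest in mutant 1, where Pdgfra was highest, but were low in wild type 1 (6.16 FPKM summed), where Pdgfra was nearly as high. Of that list 8 genes were tested and 0 called, and all 8 had higher mean log2 values in mutants (median log2 fold change 1.34). Their part in the Pdgfra values was not tested. Pdgfra overlaps 2 short annotated genes on the other strand, Gm42802 and Gm42803, so its value is uncertain.

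Gpr17 (ENSMUSG00000052229), a G protein-coupled receptor of precursors that are about to differentiate, had the lowest estimate of the 7. The gene lies on chromosome 18 from 31942997 to 31949636 on the minus strand. Its level measured 1.18 and 1.14 FPKM in wild-type and 0.554 and 0.377 FPKM in mutant libraries. The wild types agreed closely and both mutants lay below them. The log2 fold change was -0.79 (SE 0.25, 95% interval -1.43 to -0.15), with an unadjusted p of 0.0245 in limma and an adjusted p of 0.186. Over the other settings tried the adjusted p lay between 0.103 and 0.431 and the log2 fold change between -1.18 and -0.56, so the direction held in each. An estimated 22.6 to 57.7 fragments stood behind the values. Exons of Lims2 on the other strand overlap Gpr17, and Lims2 measured 0.776 and 0.984 FPKM in wild-type and 0.668 and 0.599 FPKM in mutant libraries, so the value of Gpr17 is uncertain. The authors' deposited table gives a ratio of 0.4001 with a p-value of 1.

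Among the remaining surface and secreted products, Cspg4 and Lhfpl3 had estimates close to 0. Cspg4 (ENSMUSG00000032911, chromosome 9, 56865033 to 56899870, plus strand), which codes for the proteoglycan NG2, measured 1.35 and 1.19 FPKM in wild-type and 1.20 and 0.903 FPKM in mutant libraries. The groups overlapped by a narrow margin (log2 fold change -0.20, SE 0.24, 95% interval -0.80 to 0.41, limma adjusted p = 0.708). Pericyte genes, which mark other cells that carry Cspg4, summed to 57.2 and 50.3 FPKM in wild-type and 72.7 and 58.2 FPKM in mutant libraries over 10 genes. Of 9 tested pericyte genes 0 were called, and their part in the Cspg4 values was not tested.

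Lhfpl3 (ENSMUSG00000106379), a membrane protein gene that marks precursors in adult brain, lies on chromosome 5 from 22746059 to 23275597 on the plus strand. It measured 2.36 and 2.24 FPKM in wild-type and 1.93 and 2.37 FPKM in mutant libraries. Its libraries were the closest together of the members, with the highest 1.23 times the lowest, and its interval was the narrowest (log2 fold change -0.08, SE 0.19, 95% interval -0.58 to 0.42, limma adjusted p = 0.855). As a fold of FPKM + 0.5 that interval runs from 0.667 to 1.33. The antisense gene A930003O13Rik overlaps its exons, at 0.0622 to 0.352 FPKM, so the value is uncertain.

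C1ql1 (ENSMUSG00000045532), a secreted C1q-like protein gene on chromosome 11 from 102939264 to 102946688 on the minus strand, measured 1.04 and 0.281 FPKM in wild-type and 0.0845 and 0.315 FPKM in mutant libraries. As with Nkx2-2, wild type 1 was the high library, with an estimated 14.3 fragments against 1.01 to 5.36 in the other 3. The authors' deposited table gives a ratio of 0.303 with a p-value of 1. The locus that the table gives for C1ql1 is shared with 9 other genes.

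**Figure D2:**
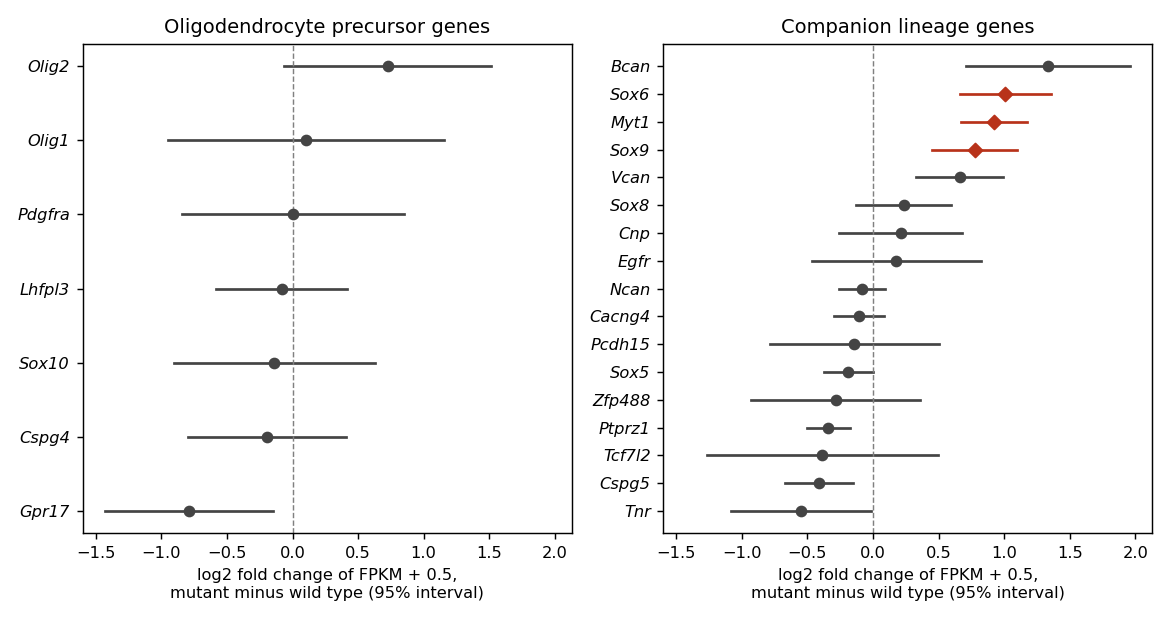
Log2 fold change of FPKM + 0.5, mutant minus wild type, with its 95% interval from limma for the 7 tested members (left) and 17 of the 18 tested companion genes of the lineage (right), where red diamonds passed an adjusted p under 0.05. Among the members only the interval of Gpr17 (-1.43 to -0.15) lies clear of 0 and none was called, while Sox6, Myt1 and Sox9 were called on the right.

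For 6 of the 7 tested members, all but Gpr17, the libraries of 1 genotype differed by more than the fold change between genotypes. The share of all tested genes with this pattern was not counted, so it cannot be called particular to the members. Wild type 1 was above wild type 2 for 9 of 9 members, while 49.6% of all tested genes were higher in wild type 1. Of the 7 tested members 3 (Olig1, Olig2 and Pdgfra) differed by 0.5 or more on the log2(FPKM + 0.5) scale, at 1.20, 0.88 and 0.59, against 6.20% of all tested genes. Mutant 1 was above mutant 2 for 6 of 9 members, with 0.72 for Pdgfra, 0.41 for Olig1 and 0.40 for Sox10, against 49.9% of all tested genes. The summed level of the 9 genes measured 36.1 and 18.8 FPKM in wild-type and 32.6 and 25.8 FPKM in mutant libraries, so both mutants lay between the wild types and wild type 1 was 1.92 times wild type 2. These counts were made after the values were seen.

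**Figure D3:**
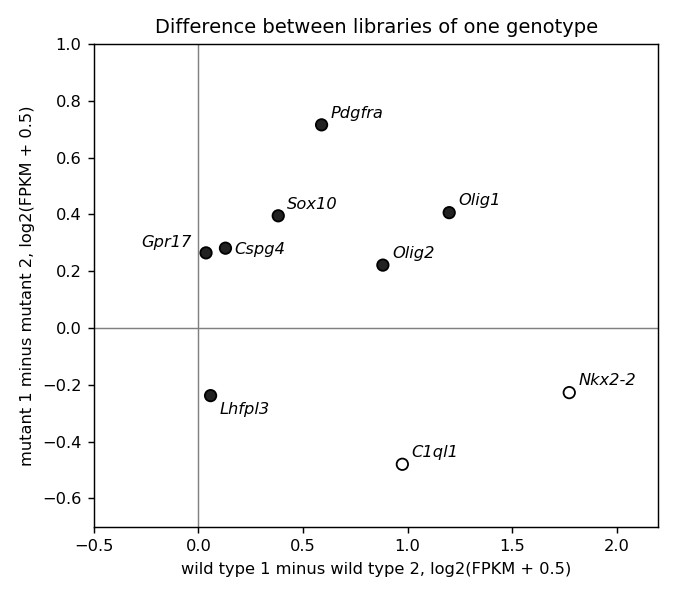
Difference between the 2 wild types (horizontal) and between the 2 mutants (vertical), on the log2(FPKM + 0.5) scale, for each member, with tested members filled and the 2 members under the filter open. All 9 points lie to the right of 0, Nkx2-2 and Olig1 farthest (1.77 and 1.20), and 6 lie above 0.

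Within a library, Olig2 was higher relative to the other members in the mutants, a comparison chosen after the values were seen and given with no test. The ratio of Olig2 to Olig1 FPKM measured 0.557 and 0.689 in wild-type and 0.917 and 1.05 in mutant libraries. The ratio of Olig2 to Pdgfra measured 2.01 and 1.66 in wild-type and 2.55 and 3.84 in mutant libraries, and that of Olig2 to Sox10 was 9.98 and 8.16 against 15.5 and 22.1. The mutants lay above both wild types for each of the 6 other tested members. All 6 ratios share Olig2, the tested member with the highest fold change, so they lean upward and are not separate observations. For the same reason the shares below do not measure how unusual the ratios of Olig2 are. A ratio shows unequal levels within a library, not which of both genes differed. Among all tested genes above 0 in each library, 3.85% had a ratio to Olig1 that was higher in both mutants than in both wild types, 6.33% had one to Pdgfra and 12.8% one to Sox10. The same share was 29.6% for Lhfpl3, 40.6% for Cspg4 and 94.9% for Gpr17, so for those last 3 genes the pattern was common.

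**Figure D4:**
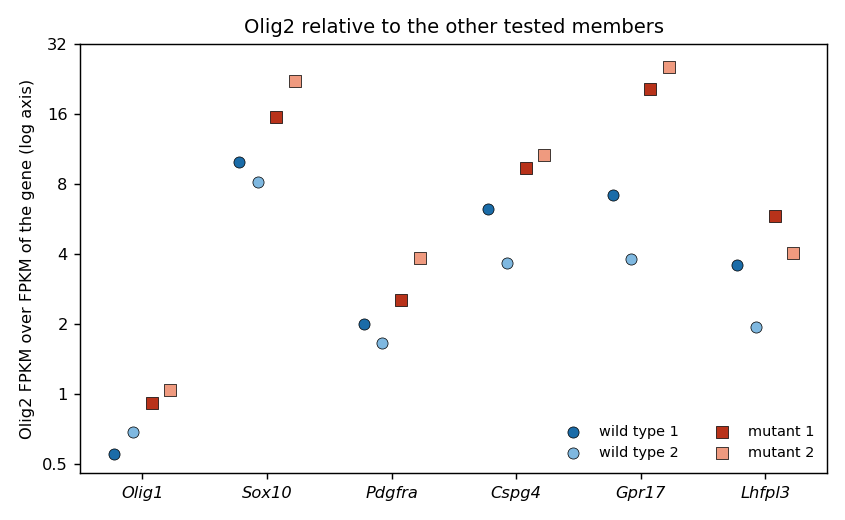
Ratio of Olig2 FPKM to the FPKM of each other tested member within each library, on a log axis, with wild types as blue circles and mutants as red squares. The mutants lie above the wild types for all 6 genes, by the narrowest margin for Lhfpl3 (4.06 against 3.60).

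The list of ventral progenitor factors, from cells where Olig2 is also used, had log2 fold changes above 0 for all 7 genes tested. It does not single out cells that hold Olig2 RNA. Of 7 tested members of that list 4 rose and 0 fell, and the median log2 fold change of the 7 was 2.78. The homeobox genes Dlx1 (log2 fold change 2.78), Dlx2 (3.07) and Gsx2 (3.32) and the zinc finger gene Sp9 (3.47) rose, with adjusted p from 0.00390 to 0.0169 in limma. Dlx1 and Sp9 overlap genes on the other strand, so both values are uncertain. With 1 library left out the adjusted p of these 4 genes ran from 0.0285 to 0.136, and the call was lost without mutant 2 for all 4, without mutant 1 for Dlx2 and Gsx2, and without either wild type for Dlx1 and Gsx2. The call of Gsx2 was also lost without the filter (adjusted p = 0.0649) and without the mean-variance trend (0.0575). The summed level of the 9 genes in the table measured 103 and 80.3 FPKM in wild-type and 569 and 638 FPKM in mutant libraries, a far wider gap than that of Olig2. Most of each sum was Dlx1, at 68.9 and 53.2 FPKM in wild-type and 388 and 449 FPKM in mutant libraries. Nkx2-1, under the filter, overlapped between groups, at 0.165 and 0.485 FPKM in wild-type and 0.312 and 0.184 FPKM in mutant libraries. The part of ventral progenitors in the Olig2 values was not tested.

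Among companion genes of the lineage outside the 9, the called ones were higher in the mutants. Of 18 tested genes among 22 listed, 3 rose and 0 fell, and the median log2 fold change was 0.05. The genes that rose are all used by other cells of the embryonic cortex as well. Myt1, a zinc finger factor of precursors and of newborn neurons, went from 23.1 and 22.1 to 40.2 and 46.7 FPKM (log2 fold change 0.92, SE 0.10, limma adjusted p = 0.0224). Sox6, which holds precursors undifferentiated and also marks interneurons, went from 10.4 and 13.2 to 23.2 and 25.0 FPKM (1.01, adjusted p = 0.0344). Sox9, a factor of radial glia and of glial specification, went from 8.72 and 7.30 to 13.7 and 14.3 FPKM (0.78, adjusted p = 0.0482). All 3 calls were lost when any 1 library was left out, with adjusted p from 0.0622 to 0.224, and without the filter or the mean-variance trend.

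The most abundant companions had no call. Ptprz1, a receptor phosphatase gene of precursors and radial glia, measured 165 and 174 FPKM in wild-type and 138 and 129 FPKM in mutant libraries (limma adjusted p = 0.0652), and Sox5 was 134 and 134 against 111 and 125 FPKM (adjusted p = 0.259). Sox5 overlaps an antisense gene, so its value is uncertain. Nkx6-1, Nkx6-2 and Susd5 stayed at or under 0.0957 FPKM in every library.

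Platelet-derived growth factor genes had 0 of 4 tested members called. Pdgfa, the main ligand of Pdgfra, measured 6.70 and 5.28 FPKM in wild-type and 4.02 and 4.15 FPKM in mutant libraries (log2 fold change -0.49, SE 0.17, limma adjusted p = 0.211). Pdgfa overlaps an annotated gene on the other strand, so its value is uncertain. Pdgfrb, the receptor of pericytes, was 3.15 and 2.92 FPKM against 4.89 and 3.67 FPKM (adjusted p = 0.319). Of the relatives and partners of the other members, 4 tested genes had 0 calls. Adgrb3, the adhesion receptor that binds C1q-like proteins, measured 31.4 and 32.04 FPKM in wild-type and 25.0 and 22.5 FPKM in mutant libraries (adjusted p = 0.0787). Lhfpl4, a relative of Lhfpl3 at inhibitory synapses, was at 25.4 to 30.1 FPKM throughout (adjusted p = 0.584).

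Genes of later oligodendrocytes were low or had no call. Of 18 listed, 10 were tested and 0 were called, with a median log2 fold change of 0.15. Opalin, Enpp6 and Aspa, which mark differentiated cells, stayed at or under 0.188 FPKM, and the myelin regulator Myrf at or under 0.224 FPKM. The highest uncalled members were Cd9, at 25.1 and 27.6 FPKM in wild-type and 20.8 and 18.5 FPKM in mutant libraries, and Cemip2, at 11.9 to 15.1 FPKM, both also expressed outside the lineage and both overlapping a gene on the other strand, so these values are uncertain. Among astroglial genes Aldoc fell, from 40.6 and 40.9 to 11.96 and 13.0 FPKM (log2 fold change -1.67, limma adjusted p = 0.00466, or 0.0790 and 0.0819 without wild type 1 and 2), and 7 of 8 tested had no call, Fabp7 and Slc1a3 among them. Endothelial genes had 0 of 8 called with all 8 fold changes above 0, and microglia genes 0 of 8 called. In the summed level of microglia genes wild type 2 was highest (29.2 FPKM) and mutant 2 lowest (22.0 FPKM). The part of these cell types in the members' values was not tested.

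**Figure D5:**
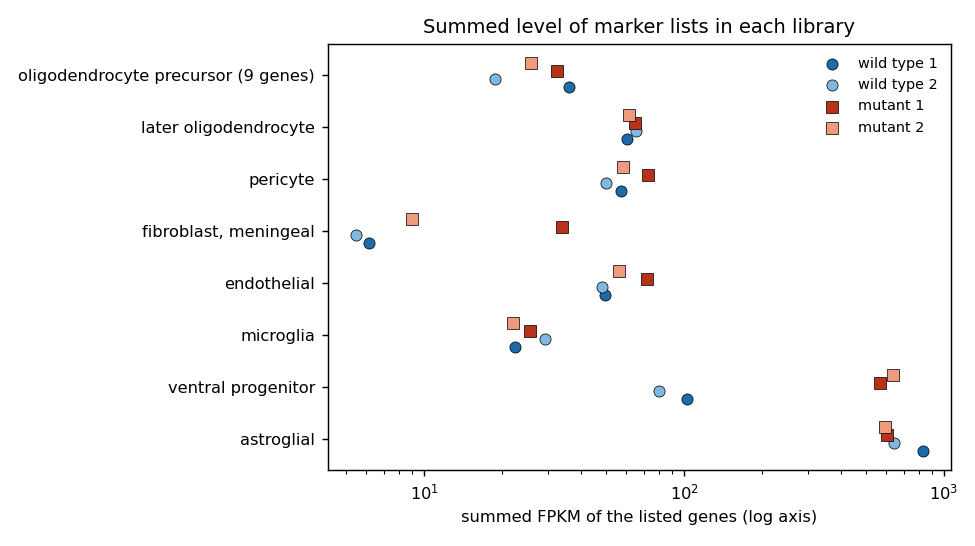
Summed FPKM of the listed genes in each library, on a log axis, for the 9 members and 7 marker lists, with wild types as blue circles and mutants as red squares. The members span 18.8 to 36.1 FPKM with the mutants inside the wild types, ventral progenitor factors separate by genotype (80.3 and 103 against 569 and 638 FPKM), and mutant 1 stands out in fibroblast and meningeal genes (34.0 FPKM).

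By the distance between profiles over the 4 libraries, each centred on its mean on the log2(FPKM + 0.5) scale, the tested genes most like Olig2 included Gm29508 (distance 0.0474), Gm15564 (0.0869) and Slc13a3 (0.121), among 1913 genes whose profile ranged over at least 1. Gm29508 and Gm15564 were listed at 0 in wild type 2 and at most at 0.744 and 0.777 FPKM elsewhere. At such levels the added 0.5 shapes the profile. Slc13a3 measured 1.85 and 0.710 FPKM in wild-type and 2.36 and 2.23 FPKM in mutant libraries, with wild type 2 lowest, as for Olig2. The genes most like Pdgfra were A3galt2 (0.226), Gm17057 (0.254), Mrgprc2-ps (0.277) and Faah (0.283), all farther than those named for Olig2. Pdgfra itself ranged over 0.72, less than the range of 1 asked of the other genes, so some distance was built in. With 4 libraries such a likeness is a description of these libraries.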

How the data were processed

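Cortex RNA was sequenced in 4 libraries, 2 per genotype. Per the file headers, the table deposited by the authors covers 22770 genes and gives FPKM for each library and each group, a mutant over wild-type ratio (fold) and a p-value; the test behind it is not stated. The submitters' processing notes list TopHat2 (2.0.9), Cufflinks (2.2.1) and edgeR, and both GRCm38.p4 and mm10, without roles; strand use is not stated. Symbols were taken by Ensembl identifier (22599 matched), and gene spans from GENCODE M21 on GRCm38.

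Values were tested as log2(FPKM + 0.5) with limma 3.58.1 in R 4.3.3 (eBayes with a trend of variance on mean; 3.05 prior degrees of freedom), two-sided, with Benjamini-Hochberg adjustment over all 15399 genes at 0.5 FPKM or more in 2 or more libraries. Fold changes on this scale understate low genes. On simulated data for these 15399 genes 4% of 1.5-fold changes were recovered, as were 42% of 2-fold, 86% of 4-fold and 90% of 8-fold changes. The changed genes were drawn at random from all tested genes, with noise from the same variance trend and prior that limma fits. These rates are therefore not those of the members, whose SE ran from 0.19 to 0.41, and no rate was taken at their levels. Fragment estimates divide FPKM times exon length by the most frequent low value. Only 12.7% to 16.6% of the low genes of a library lay within 0.1 of that value on the log2 scale. Exon length was the union of the annotated exons, which may differ from the length behind the FPKM, so these estimates are rough.

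Members and lists were chosen with earlier results of these data known. All members are named; of other lists, called genes (up to 4) and at most 2 of the highest uncalled genes, and up to 4 genes nearest in profile to Olig2 and to Pdgfra; other genes named were chosen after their values were seen. Of the listed names, Lhfpl1, C1ql4, Foxd3 and Gsh2 (an older name of Gsx2) matched no row. Alternatives were other pseudocounts, filters, scalings, no trend, the replicate number as a block, and each library left out. Some genes that the naming rule selects are not reported here; counts and sums over lists include them.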

Additional observations from a re-analysis of the deposited data

How the results depend on the processing

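With 2 libraries a group, the number of called members was 0 under all 13 alternatives. Leaving out each library in turn, the median log2 fold change of the members ranged from -0.34 to 0.058, all genes called from 7 to 59, and other listed genes called from 0 to 2 higher and 0 to 2 lower, against 536, 7 and 6 with all 4; each such fit has 1 library in a group, assumed to vary like the other group. With no filter on low values 61 genes were called, 3 listed genes higher and 1 lower, and without the trend 54, 3 and 1. Among members, leaving out a library moved the log2 fold change of Olig1 between -0.50 and 0.70, of Pdgfra between -0.35 and 0.36, of Sox10 between -0.34 and 0.058 and of Lhfpl3 between -0.20 and 0.035, so their sign turned, and that of Pdgfra also under quantile normalization (-0.012). Olig2, Gpr17 and Cspg4 kept their direction under all 13. For Olig2 and Gpr17, whose groups did not overlap, leaving out a library or changing the pseudocount could not turn the sign. The same holds for the 51.6% of all tested genes whose groups did not overlap. Settings of filter, trend and block leave each fold change as it was, so the kept direction says little. With the replicate number as a block 374 genes and 0 members were called, and Sox9 lost its call (adjusted p = 0.0734 in limma); numbers are not said to pair libraries, and deviations of equal numbers correlated at 0.0492 across genes. Values under about 0.5 FPKM rest on few fragments.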
